A study of Mus musculus with 6 samples.

Results

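The genes described here are 10 imprinted genes of the growth network, found by symbol among the 49585 Ensembl genes counted in mouse haematopoietic stem cells: H19, Igf2, Igf2r, Meg3, Dlk1, Peg3, Grb10, Ndn, Mest and Plagl1. Each symbol matched 1 gene identifier. The set was chosen by measured values in 1 respect: it was assembled around H19, selected on its higher count in CD38-positive cells in all 3 pairs. For that reason the comparison of the populations is given for these genes as a description, and no p-value is given for any of them. Stem cells were sorted from the bone marrow of untreated C57BL/6 mice aged 8 to 16 weeks by flow cytometry: they carried Kit, Sca-1, CD150 and CD201 and lacked lineage markers, CD48 and CD34. They were divided into CD38hi cells (3 libraries, called CD38-positive) and CD38lo cells (3 libraries, called CD38-negative). Each library pooled the cells of 10 mice, and the design text sets them side by side as 3 pairs, with no word on whether paired libraries share animals. The bulk RNA-seq libraries held 16771180 to 18558610 counts each.

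An imprinted gene is transcribed mainly from the copy inherited from 1 parent, because DNA methylation laid down in the egg or sperm marks a control region near it. Genes usually expressed from the paternal copy tend to promote growth, and several of those expressed from the maternal copy restrain it. In the H19-Igf2 domain, the insulator protein CTCF binds the unmethylated maternal control region, so that enhancers reach H19 there and Igf2 on the paternal chromosome. Imprinted genes are known in blood stem cells for restraining IGF signalling and cell division, and H19 and Ndn have both been linked to stem cell quiescence. Of the 10 genes, 4 are usually expressed from the maternal copy (H19, Meg3, Igf2r and Grb10) and 6 from the paternal copy. Gene counts do not tell the parental copies apart.

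H19 is a long non-coding RNA gene whose exon also encodes the hairpin of miR-675, and introns of Igf2 and Mest hold the hairpins of miR-483 and miR-335. The mature sequences are shown because they are the known small-RNA products of H19, Igf2 and Mest, and because hairpins inside a counted exon touch how reads are assigned. Capitals mark the seed, bases 2 to 8 from the 5′ end, which pairs with target mRNAs (RefSeq, GRCm38.p6).
miR-675-5p (H19 exon, chr7:142577112-142577133, minus strand): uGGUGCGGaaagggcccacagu
miR-675-3p (H19 exon, chr7:142577078-142577099, minus strand): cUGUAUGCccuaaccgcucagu
miR-483-5p (Igf2 intron, chr7:142654968-142654989, minus strand): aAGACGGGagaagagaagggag
miR-483-3p (Igf2 intron, chr7:142654932-142654952, minus strand): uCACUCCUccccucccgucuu
miR-335-5p (Mest intron, chr6:30741314-30741336, plus strand): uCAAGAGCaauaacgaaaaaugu
miR-335-3p (Mest intron, chr6:30741354-30741375, plus strand): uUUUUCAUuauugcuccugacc
The table of miRNAs holds 9 mature miRNAs from 5 hairpin genes inside the member genes, and the 9 seeds are all different. The hairpin genes Mir675, Mir483, Mir335, Mir770 and Mir1906-1 each had 0 counts in all 6 libraries. Mir675 lies in an exon of H19, and Mir770 and Mir1906-1 lie in exons of Meg3. Nothing about the level of the mature miRNAs is read from these counts. The Mir675 hairpin covers 84 of the 2460 exonic bases of H19, and whether reads there were given to either gene is not stated in the sources used here.

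The members spanned a wide range of levels when compared per length, as CPM per kb of exons (CPM is the depth-scaled count, adjusted by TMM; the length is the union of all annotated exons). Ndn, which encodes necdin, a growth-suppressing nuclear protein, was the highest, at 13.1 ± 3.70 CPM per kb (SD, n = 6). Grb10, an adaptor that binds and dampens the insulin and IGF receptors, followed at 5.98 ± 3.93. Igf2r, the receptor that clears IGF2 from the cell surface to lysosomes, was at 1.79 ± 0.225. Mest, a member of the alpha/beta hydrolase fold family, was at 0.708 ± 0.711, H19 at 0.468 ± 0.471 and Igf2, the fetal growth factor IGF2, at 0.132 ± 0.0654 CPM per kb. The remaining 4 genes had fewer than 12 counts in every library.

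Of neighbours in this order, Grb10 and Igf2r were the 1 pair among the upper 6 genes whose ranges over the 6 libraries did not overlap. Grb10 ran from 2.76 to 13.4 and Igf2r from 1.43 to 2.08 CPM per kb. Ndn was above Grb10 in 6 of 6 libraries although their ranges overlapped. Mest was above H19 in 3 of 6 libraries, so their order depended on the library. H19 was above Igf2 in 5 of 6 libraries. In bulk samples, fewer cells expressing a gene and less RNA per cell cannot be told apart.

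**Figure D1:**
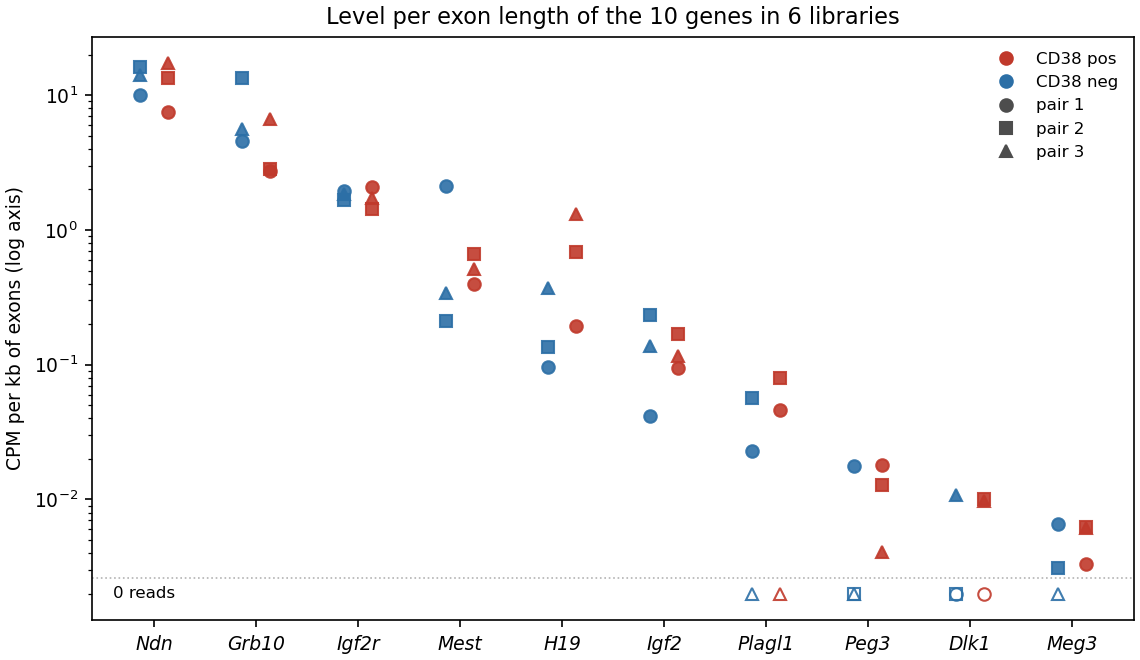
Level of each of the 10 genes in each library, in CPM per kb of exons on a log axis, ordered by the mean; red is CD38-positive, blue is CD38-negative, shapes mark pairs, and open symbols below the dotted line are libraries with 0 reads. Ndn, Grb10 and Igf2r stand above 1 CPM per kb in every library, while Plagl1, Peg3, Dlk1 and Meg3 reach 0 reads in at least 1 library.

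The promoters of the members did not line up with this order. RefSeq windows of 300 bases, 250 before to 50 after a start site, were found for 9 members (H19 was not among them), with 16 windows in all. The median of 32851 mouse windows held 7 CpG sites. The 5′-most Grb10 window held 45 CpG sites, more than 98.1% of all windows, and the Igf2r window 34, more than 92.3%. Plagl1, which was close to the detection floor, had 26 CpG sites, and Ndn, the gene with the highest level, had 11. Dlk1, at 0 or 1 read in each library, had 9, as did the second Grb10 window.

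The 250 upstream bases of 3 of these windows are shown with each CpG in capitals, since CpG methylation is how imprints are carried. Whether these windows carry an imprint was not tested. They come from 2 expressed genes and Dlk1 and do not stand for all windows: the second Grb10 window, not shown, held 9 CpG sites, as many as that of Dlk1. None of the 3 stretches lies in an annotated exon of its gene.
Grb10 (GRCm38.p6, chr11:12037421-12037670, minus strand): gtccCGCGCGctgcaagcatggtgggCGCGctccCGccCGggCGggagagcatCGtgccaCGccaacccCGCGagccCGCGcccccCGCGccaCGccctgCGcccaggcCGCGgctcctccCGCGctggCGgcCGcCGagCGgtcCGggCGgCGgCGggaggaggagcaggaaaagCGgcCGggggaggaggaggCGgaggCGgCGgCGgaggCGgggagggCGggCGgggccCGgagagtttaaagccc
Igf2r (GRCm38.p6, chr17:12769707-12769956, minus strand): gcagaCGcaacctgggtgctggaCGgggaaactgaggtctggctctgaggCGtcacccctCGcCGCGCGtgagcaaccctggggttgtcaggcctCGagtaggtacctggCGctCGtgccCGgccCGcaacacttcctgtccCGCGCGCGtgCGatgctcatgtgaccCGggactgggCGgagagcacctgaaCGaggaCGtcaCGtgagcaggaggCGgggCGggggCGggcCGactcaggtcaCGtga
Dlk1 (GRCm38.p6, chr12:109452573-109452822, plus strand): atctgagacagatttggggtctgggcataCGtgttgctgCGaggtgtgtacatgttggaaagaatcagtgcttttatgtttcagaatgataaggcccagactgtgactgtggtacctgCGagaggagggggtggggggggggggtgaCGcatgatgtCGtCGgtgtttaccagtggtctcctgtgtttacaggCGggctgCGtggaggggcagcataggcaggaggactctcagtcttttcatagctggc
These stretches hold 40, 27 and 8 CpG sites in Grb10, Igf2r and Dlk1. Methylation was not measured in this series.

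Across the populations, H19 was the 1 member of the 6 that could be fitted whose level was higher in CD38-positive cells in all 3 pairs, and no other of the 6 went 1 way in all pairs. Of all genes tested, 13.2% were higher in all 3 pairs and 11.3% lower in all 3. The fit across all 14785 genes put 0.0135% of them past an adjusted p-value of 0.05 in edgeR's quasi-likelihood test (2 genes; 0.00676% higher and 0.00676% lower), and 0 of the 6 members were among those 2 genes. In 0 of the 6 members were the populations free of overlap, against 3.33% of genes tested with CD38-positive higher and 3.19% with it lower. They also overlapped in the members too low to be fitted. Since H19 was picked for this difference, nothing is read from these counts.

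H19 (ENSMUSG00000000031, GRCm38 chromosome 7, 142575529 to 142578143, minus strand) was covered by 8, 30 and 59 reads in replicates 1, 2 and 3 of the CD38-positive cells. The CD38-negative libraries paired with them had 4, 6 and 15 reads. These correspond to 0.479, 1.69 and 3.25 CPM against 0.238, 0.333 and 0.916 CPM. Within each pair the CD38-positive library was the higher, but the populations overlapped: CD38-negative replicate 3 was above CD38-positive replicate 1. The CD38-positive mean was 1.81 ± 1.39 and the CD38-negative mean 0.495 ± 0.367 CPM (SD, n = 3 each). The log2 difference was 1.79 (SE 0.55); here and below, log2 differences come from the fit with the pair as a block, so they can depart from the ratio of the means. The highest library was 13.7-fold above the lowest, the widest range of any of the 6 fitted members.

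Counting error is large at these depths. The ratio of CD38-positive to CD38-negative in pair 1, 2.01, has an exact 95% binomial interval from 0.539 to 9.14. The ratios were 5.09 (2.08 to 15.0) in pair 2 and 3.55 (1.99 to 6.74) in pair 3. These intervals cover counting error only, since the counts carry no molecular identifiers and PCR copies are not separate molecules. Exons of Mir675 and of small RNA genes on the opposite strand share 9.15% of the exonic bases of H19.

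**Figure D2:**
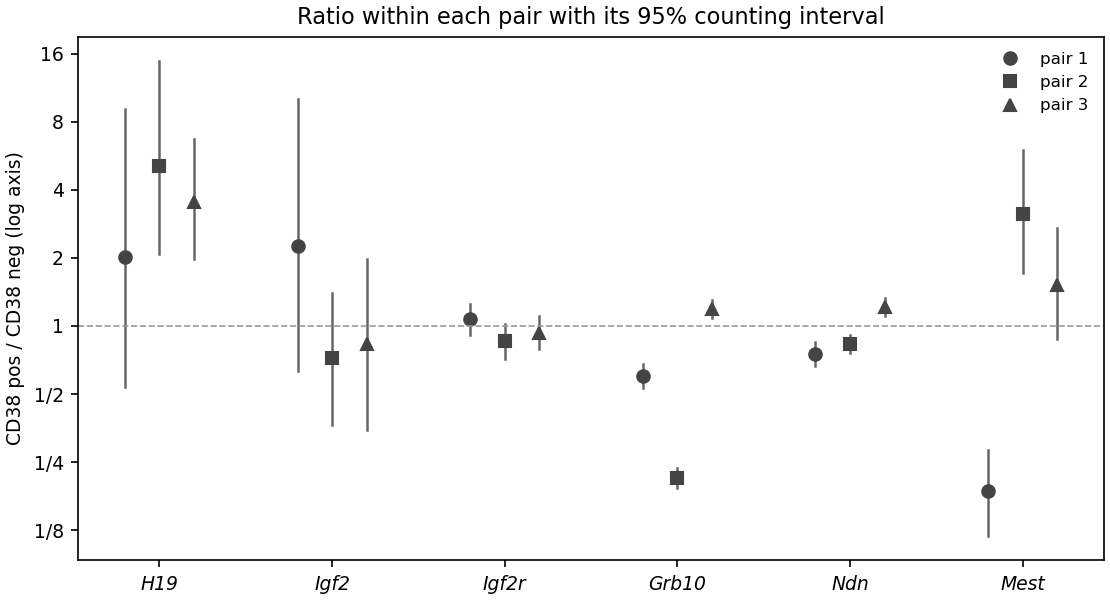
Ratio of CD38-positive to CD38-negative CPM within each pair (log axis) for the 6 members that could be fitted, with exact 95% intervals for counting error. The 3 H19 ratios, 2.01, 5.09 and 3.55, lie above 1. Grb10, Ndn and Mest have pairs on both sides of 1, with intervals of their lowest and highest pair that do not meet.

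Markers of other cells were read beside H19, since H19 is also transcribed outside blood cells. The summed level of 14 stromal and osteogenic markers was 199, 29.3 and 156 CPM in CD38-positive replicates 1, 2 and 3 and 135, 36.4 and 40.0 CPM in their partners. It was higher in CD38-positive cells in 2 of 3 pairs, and its highest library, CD38-positive replicate 1, had the lowest H19 of that population. Most of this sum came from Cxcl12 in every library except CD38-positive replicate 2. Cxcl12 was at 151.2, 11.58 and 114.8 CPM in CD38-positive replicates 1, 2 and 3 and 104.2, 22.03 and 25.76 CPM in their partners. The direction of the sum in each pair and its highest library were thus also those of Cxcl12. Of these 14 markers, Dcn, Sparc and Mgp were higher in CD38-positive cells in all 3 pairs, Col1a1 was lower in all 3, and 10 were mixed. Sparc, which encodes a matrix protein, had 253, 132 and 164 reads against 118, 25 and 35. Mgp, which encodes matrix Gla protein, had 98, 27 and 125 against 27, 10 and 17, and Col1a1, a collagen gene, 21, 19 and 15 against 35, 27 and 25. The 12 endothelial markers summed to 184 to 338 CPM in CD38-positive and 221 to 295 CPM in CD38-negative libraries, but most of that sum came from genes high in every library, such as Esam and Egfl7. Of the 12, 5 were higher in all 3 pairs (Ramp2, Stab2, Pecam1, Cdh5 and Flt4), 0 were lower in all 3 and 7 were mixed. Beside these marker counts, 13.2% of all genes tested were higher in all 3 pairs and 11.3% lower. Cdh5, Flt4 and the stromal marker Dcn were too low to be fitted. Ramp2, which encodes a receptor-modifying protein, had 40, 111 and 90 reads against 11, 22 and 16, a log2 difference of 2.20 (SE 0.40; edgeR adjusted p = 0.125). Stab2, a scavenger receptor gene, had 56, 74 and 104 reads against 37, 36 and 43. The defining endothelial gene Cdh5 had 12, 5 and 5 reads against 6, 2 and 0, and Sox17 had 1 read in all. None of the stromal or endothelial markers was at 0 in all libraries. The single markers named here were chosen after their values were seen. The part of such cells in the level of H19 was not tested.

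Igf2, the paternally expressed neighbour 88.7 kb from the start of H19 (chromosome 7, 142650766 to 142666816, minus strand), did not follow H19. CD38-positive libraries held 9, 17 and 12 reads and their partners 4, 24 and 13. CD38-positive cells were higher in pair 1 and lower in pairs 2 and 3. The means were 0.720 ± 0.217 and 0.788 ± 0.547 CPM (SD, n = 3 each), and the log2 difference was 0.02 (SE 0.55). The exact 95% binomial intervals of the pair ratios ran from 0.632 to 10.1, from 0.364 to 1.40 and from 0.347 to 1.98 in pairs 1, 2 and 3.

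Igf2r (chromosome 17, 12682406 to 12769664, minus strand) was the steadiest member. CD38-positive libraries held 323, 236 and 294 reads and their partners 304, 281 and 284. The highest library was 1.45-fold above the lowest, and the populations overlapped throughout. Its log2 difference was -0.08 (SE 0.23). Within populations its log2 SD was 0.20, and 16.7% of the 2384 tested genes of a like count (within 1.5-fold) varied less. Airn, the non-coding RNA that silences Igf2r in cis on the paternal chromosome, had 9, 16 and 23 reads against 16, 8 and 10, with a log2 difference of 0.43 (SE 0.60). The span of Airn overlaps that of Igf2r on the opposite strand. Airn reads in the shared stretch cannot be told from unspliced Igf2r reads without strand. Slc22a3, a transporter gene of the same domain, had a log2 difference of -0.13 (SE 0.23).

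Grb10 (ENSMUSG00000020176, chromosome 11, 11930508 to 12038683, minus strand) had its highest level in a single CD38-negative library. CD38-positive replicates 1, 2 and 3 held 419, 458 and 1101 reads, and their partners 700, 2190 and 838. CD38-positive cells were lower in pairs 1 and 2 and higher in pair 3, with ratios of 0.603 (exact 95% binomial interval 0.533 to 0.681), 0.213 (0.192 to 0.236) and 1.19 (1.08 to 1.30). The CD38-positive and CD38-negative means were 37.2 ± 20.3 and 71.4 ± 43.7 CPM (SD, n = 3 each). The log2 difference of -0.89 (SE 0.35) was -0.25 without pair 2. Of 2305 tested genes of a like count, 99.1% varied less within populations than Grb10.

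Kit, the stem cell factor receptor and a sorting marker here, was looked up after the Grb10 values were seen. Its level was 133, 110 and 226 CPM in CD38-positive replicates 1, 2 and 3 and 210, 555 and 191 CPM in their partners, so CD38-negative replicate 2 was the highest library for both genes. The log2 differences in pairs 1, 2 and 3 were -0.66, -2.34 and 0.24 for Kit and -0.73, -2.23 and 0.24 for Grb10. Over the 6 libraries, log2 CPM of Grb10 and Kit had a Pearson correlation of 0.97, and 39 of 13266 genes compared were more like Grb10. Of 12 stem cell markers, Slamf1 and Ctnnal1 were higher in CD38-positive cells in all 3 pairs, against 13.2% of all genes tested. Hlf, Ly6a and Meis1 were lower in all 3, against 11.3%, and 7 were mixed. The summed level of the 12 ran from 777 to 1656 CPM in CD38-positive and 1019 to 2250 CPM in CD38-negative libraries. Kit is itself part of this sum, whose correlation with Grb10 was 0.95. These points share libraries and depth, and the part of stem cell purity in the Grb10 values was not tested. Ddc, the neighbour of Grb10 that encodes DOPA decarboxylase, had 1 to 29 reads and a log2 difference of -0.55 (SE 0.61).

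**Figure D3:**
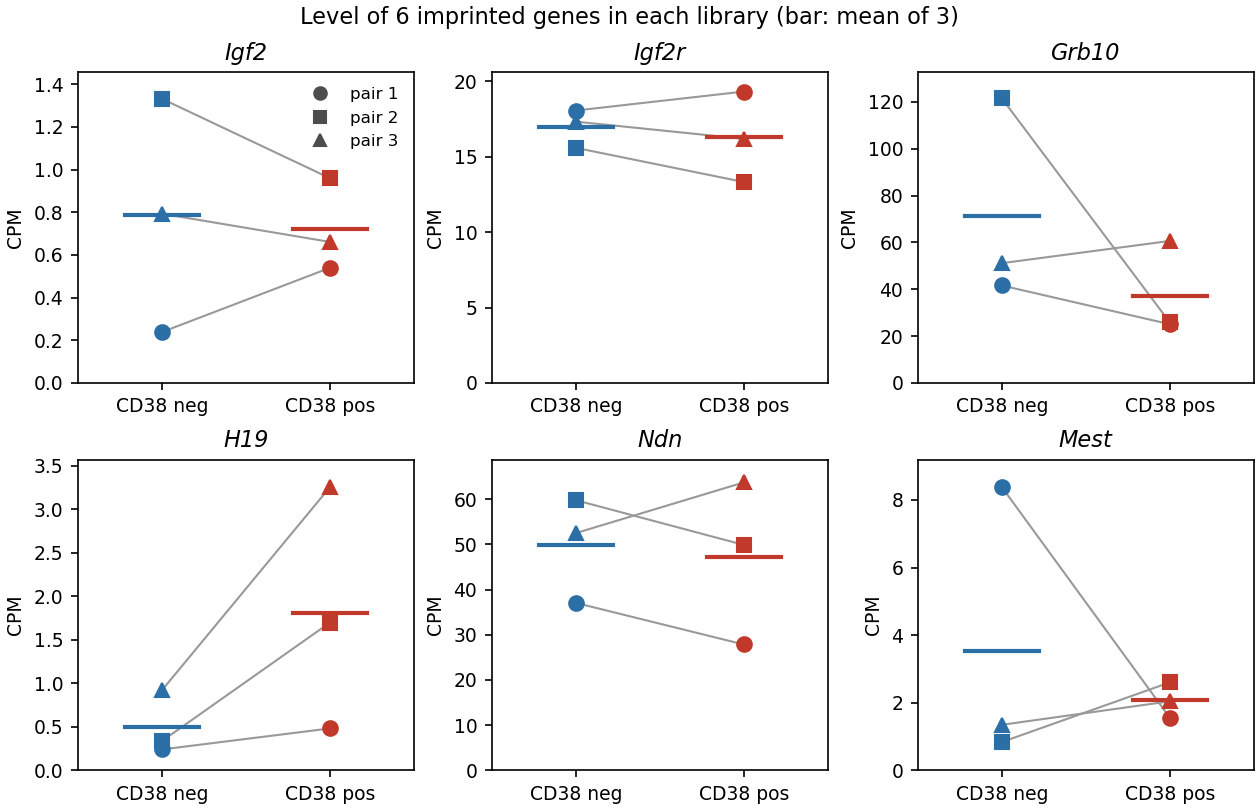
CPM of 6 imprinted genes in each library, with CD38-negative (blue) and CD38-positive (red) libraries of a pair joined by a line and horizontal bars at the mean of 3. H19 is higher in the CD38-positive library of all 3 pairs, the Grb10 mean rests on CD38-negative replicate 2 at 122 CPM, and the Mest mean on CD38-negative replicate 1 at 8.38 CPM.

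Ndn (chromosome 7, 62346569 to 62350262, plus strand), a single-exon gene, had 465, 883 and 1157 reads in CD38-positive and 623, 1077 and 860 reads in CD38-negative libraries. Pairs differed more than populations did: both libraries of pair 1 were the lowest of their population. CD38-positive cells were lower in pairs 1 and 2 and higher in pair 3. The means were 47.1 ± 18.1 and 49.8 ± 11.6 CPM (SD, n = 3 each), and the log2 difference was -0.13 (SE 0.21). The other genes of its domain included Snrpn, which encodes a splicing protein, at -0.36 (SE 0.45) and Mkrn3, a ubiquitin ligase gene, at 0.33 (SE 0.42). Ube3a, a ubiquitin ligase gene imprinted in neurons, was at -0.10 (SE 0.20), and Atp10a, a lipid flippase gene, at 0.07 (SE 0.26). Magel2, the close relative of Ndn in the same domain, had 0 counts in all libraries.

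Mest (chromosome 6, 30723547 to 30748465, plus strand) had 26, 46 and 37 reads in CD38-positive libraries and 141, 15 and 22 reads in their partners. CD38-negative replicate 1 was the highest library by far, and CD38-positive cells were higher in pairs 2 and 3. The means were 2.06 ± 0.522 and 3.52 ± 4.22 CPM (SD, n = 3 each). The log2 difference was -0.11 (SE 0.66) in the fit with the pair as a block, -0.76 without the block, and 1.11 without pair 1. Of 1575 tested genes of a like count, 97.8% varied less within populations. Exons of Copg2 on the opposite strand share 23.1% of the exonic bases of Mest, and the strand setting of the counting is not stated in the sources used here. Copg2, which encodes a coatomer subunit, had a log2 difference of 0.10 (SE 0.23).

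The other 4 members were close to the floor of detection, 3 counts or 0.165 to 0.183 CPM, and were too low to be fitted. Plagl1, a zinc finger transcription factor known as a regulator of the imprinted network, had 6, 11 and 0 reads in CD38-positive and 3, 8 and 0 reads in CD38-negative libraries. Both libraries of pair 3 were thus at 0, where H19 was highest. Peg3, a zinc finger factor, had 4, 3 and 1 reads against 4, 0 and 0. Dlk1, a Notch-related membrane protein, had 3 reads in all, and the non-coding RNA Meg3 had 5 in CD38-positive and 3 in CD38-negative libraries. No difference was detectable for these genes at this depth.

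The Dlk1-Meg3 domain was also low in its other genes. Rian had 0, 1 and 2 reads against 1, 4 and 3, Mirg had 0 against 1, 2 and 2, and Rtl1 and Dio3 had 0 throughout. In the Peg3 domain, Usp29 had 3 reads in all, and Zim1, Zim3 and Zfp264 had 0. Phactr2, next to Plagl1, was higher than its neighbour, at 9.38 and 11.3 CPM, with a log2 difference of -0.20 (SE 0.28).

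A list of 70 other imprinted genes was compared in the same fit. Of these, 39 could be tested and 16 had 0 counts in every library. None passed an adjusted p-value of 0.05 in edgeR (the smallest was 0.926), and DESeq2 and limma-voom also called 0. Without adjustment, 1 gene was higher and 4 were lower at a p-value under 0.05, a rule met by 5.08% of all genes tested. Fitted values were positive for 15 genes and negative for 24, with a median of -0.10 against 0.00 for all genes tested. The median was -0.04, -0.29 and -0.06 in pairs 1, 2 and 3. In the domains of the members themselves, 19 of 38 listed genes could be tested, of which 8 had positive and 11 negative values.

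Several of the genes with the smallest p-values lie in the Kcnq1 domain, which adjoins the H19-Igf2 domain on chromosome 7. Of the 39 tested genes of the list, 10 were listed under these domains. Phlda2, which restrains placental growth, had 61, 64 and 125 reads in CD38-positive and 131, 130 and 171 in CD38-negative libraries. Its populations did not overlap, and its log2 difference was -0.89 (SE 0.29; edgeR adjusted p = 0.926). Kcnq1ot1, the non-coding RNA that silences this domain on the paternal chromosome, was at 24.1 ± 8.76 and 37.4 ± 7.91 CPM (SD, n = 3 each), a log2 difference of -0.68 (SE 0.24; edgeR adjusted p = 0.926). Cdkn1c, the CDK inhibitor p57, went the other way. It had 36, 48 and 141 reads against 12, 36 and 73, a log2 difference of 0.89 (SE 0.38; edgeR adjusted p = 0.926). The Kcnq1ot1 counts cannot be told from unspliced Kcnq1 reads without strand. Kcnq1 itself had 1, 0 and 1 reads in CD38-positive and 3, 0 and 0 reads in CD38-negative libraries. The part of unspliced Kcnq1 in the Kcnq1ot1 counts was not tested.

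Along 1179 kb from H19, the 12 tested genes of both domains did not share a direction. Beside H19, Cdkn1c and Osbpl5, an oxysterol-binding protein gene, were higher in all 3 pairs, at 0.89 and 0.13 in the fit. Phlda2 and Kcnq1ot1 were lower in all 3. Ascl2, a transcription factor gene, had 0.73 (SE 0.48), with pair 2 at -0.02. The tetraspanin genes Tspan32 and Cd81 were at -0.47 (SE 0.22) and -0.17 (SE 0.20), Slc22a18, a transporter gene, at -0.27 (SE 0.31), Tssc4 at -0.04 (SE 0.20) and Nap1l4, a histone chaperone gene, at 0.11 (SE 0.19).

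**Figure D4:**
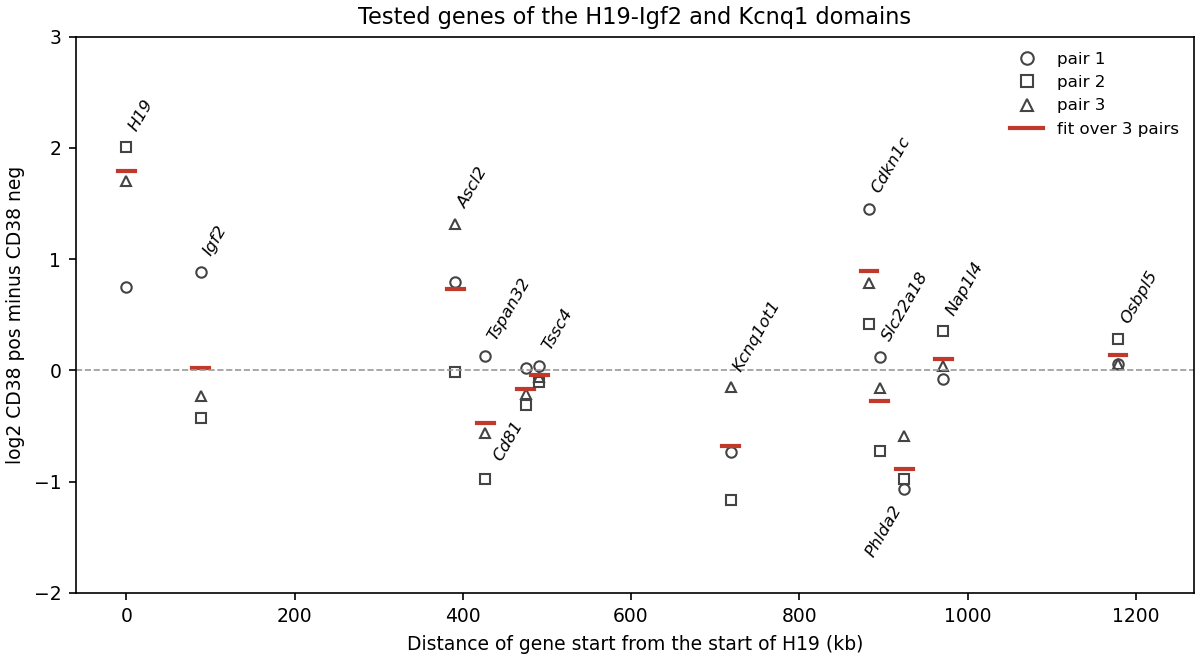
Log2 difference (CD38-positive minus CD38-negative) of the 12 tested genes of the H19-Igf2 and Kcnq1 domains against the distance of their start from that of H19, in kb; open symbols are the 3 pairs and red bars the fit. H19 at 1.79 and Cdkn1c at 0.89 lie above zero in every pair, and Kcnq1ot1 at -0.68 and Phlda2 at -0.89 below it. The fits of the other genes between them range from -0.47 (Tspan32) to 0.73 (Ascl2).

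Outside these domains, Peg13, a non-coding RNA within Trappc9, had 71, 53 and 114 reads against 79, 429 and 138, a log2 difference of -1.16 (SE 0.46; edgeR adjusted p = 0.926). As for Grb10, CD38-negative replicate 2 was the highest library by far. Dcn, which encodes the matrix proteoglycan decorin, is imprinted in placenta and was also on the stromal marker list. It was too low to be fitted and is named after its values were seen: it had 18, 9 and 27 reads in CD38-positive and 3, 2 and 8 in CD38-negative libraries.

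The IGF and insulin pathway, on which Igf2, Igf2r and Grb10 act, was compared through 46 genes, of which 36 could be tested. None passed an adjusted p-value of 0.05 in edgeR, DESeq2 or limma-voom, and without adjustment 1 gene was higher and 1 lower at a p-value under 0.05 in edgeR. Their median log2 difference was 0.05 against 0.00 for all genes tested, with 20 positive and 16 negative. Igfbp4, an IGF carrier that limits IGF signalling, had 3732, 5848 and 2442 reads against 3262, 2863 and 1561, a log2 difference of 0.59 (SE 0.21; edgeR adjusted p = 0.926). Hmga2, a chromatin factor of fetal-type self-renewal, was at -0.78 (SE 0.32; edgeR adjusted p = 0.926). Grb14, a relative of Grb10, was at 0.83 (SE 0.47) and the insulin receptor gene Insr at -0.44 (SE 0.26).

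The machinery that keeps imprints was compared through 17 genes, 15 of them tested. None passed the adjusted threshold in edgeR, DESeq2 or limma-voom, and 0 had an unadjusted p-value under 0.05 in edgeR; the median log2 difference was -0.08, with 5 positive and 10 negative. The smallest p-values belonged to Tet1, which oxidises methylcytosine, at -0.52 (SE 0.28), Uhrf1, which guides maintenance methylation, at 0.28 (SE 0.20), the methyltransferase gene Dnmt3b at 0.27 (SE 0.25) and Tet3 at -0.24 (SE 0.24). Uhrf1 is also a cell cycle gene.

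The genes whose pattern over the 6 libraries was most like that of H19 were sought among 13266 tested genes with a mean of at least 20 counts, by Pearson correlation of log2 CPM, as a description. They were Ggh, which encodes a folate hydrolase (0.996), 1810043G02Rik (0.996), the growth factor gene Nrg4 (0.988), the heat shock co-chaperone gene Dnaja1 (0.982) and the zinc transporter gene Slc30a7 (0.981). With 6 libraries, 101 genes exceeded 0.9. Their changes were much smaller than those of H19: Ggh had 1323, 1712 and 1878 reads in CD38-positive and 1253, 1395 and 1431 in CD38-negative libraries. For Meg3 the nearest were Thap2, Gm10390 and 1700094J05Rik (0.997, 0.991 and 0.985), but its level rests on at most 2 reads in a library.

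As to the libraries as a whole, Cd38 itself was higher in CD38-positive cells in 3 of 3 pairs, with 617, 819 and 1057 reads against 406, 641 and 391. All 12 stem cell markers were detected. A list of 14 granulocyte and monocyte genes, which a stem cell sort should leave out, summed to between 80370 and 177361 CPM, with its highest value in CD38-positive replicate 1, the library with the fewest H19 and Ndn reads of its population. Marker genes of B and plasma cells were lower in CD38-positive libraries in all 3 pairs, at 339 to 1047 against 1188 to 2823 CPM. The part of these cells in the members' levels was not tested.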

How the data were processed

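The authors deposited a table of raw counts by Ensembl identifier for each of the 6 samples; the submitters' processing notes name cutadapt, STAR, HTSeq 0.6.1p1 and the builds GRCm38 and mm10. Strand setting and annotation release are not given in the sources used here. Symbols matched 49326 of 49585 identifiers. Coordinates and exonic lengths came from GENCODE M21 (GRCm38), and sequences from RefSeq tables (GRCm38.p6).

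Genes were kept by edgeR's filterByExpr, which left 14785, and scaled by TMM. The edgeR 4.0.16 quasi-likelihood test (R 4.3.3) was fitted with pair plus population, with Benjamini-Hochberg adjustment over all genes. The procedure was run on simulated counts with population differences but no pair differences, so that run did not check the pair block. Standard errors come from the quasi-F statistic, and per-pair differences from log2 CPM (prior count 2). The design text gives the pairing; after centring each population, the 2 libraries of pairs 1, 2 and 3 had correlations of 0.34, 0.12 and 0.24. Replicates differed beyond counting error, with a chi-square of at least 47.5 per degree of freedom. P-values measure the spread between these pools.

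Members and lists were chosen with earlier results of these data known. Named genes were the members, tested genes of their domains, the 4 smallest p-values of each list, and the genes most like H19 (5) and Meg3 (3). Cd38, Kit, Dcn, single cell type markers and untested genes of the members' domains are named outside this rule, after their values were seen. Alternatives were no block, DESeq2 1.42.0, limma-voom (limma 3.58.1), 2 other scalings, 2 other filters and leaving out each pair.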

Additional observations from a re-analysis of the deposited data

How the results depend on the processing

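The number of genes past the threshold over all genes was 2. It was 0 without the replicate block, 11 in DESeq2, 7 with DESeq2 size factors, 0 with library totals alone, 80 with no filter beyond 1 count and 13 with a mean of at least 10 counts. Leaving out a pair gave 2 to 41, and the cause was not tested. The counts for the other imprinted, growth pathway and imprint maintenance genes were 0 under all 10 alternatives. The direction of H19 is fixed by how it was chosen; its log2 difference ran from 1.52 (without pair 2) to 2.04 (without pair 1) and was 1.86 without the replicate block. Without pair 3 H19 did not pass the filter. Without the block Mest was at -0.76. Igf2 changed sign without the block (-0.13) and in limma-voom (-0.042). Leaving out a pair moved Igf2 from -0.37 to 0.32, Ndn from -0.34 to 0.0094, Mest from -1.02 to 1.11 and Grb10 from -1.49 to -0.25. No scaling moved the median of all genes by more than 0.02. Levels under 3 counts (0.183 CPM at most) could not be told from 0.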
